A study of Danio rerio with 8 samples.

Results

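The genes described are the 5 subunits of the transcription factor NF-kB (nfkb1, nfkb2, rela, relb and rel) and 5 of its inhibitors (nfkbiaa, nfkbiab, nfkbie, nfkbiz and tnfaip3) in the adult zebrafish brain. They were chosen by name, without regard to case, from the 31388 genes of the deposited count table. All 10 were found under their own symbols, and all 10 passed the filter on low counts, which kept 20508 genes. The groups were IL4 GFP-positive, PBS GFP-positive, IL4 GFP-negative and PBS GFP-negative, with 2 libraries each and 8 in all. The fish were 6 months past fertilization (6 mpf) and carried the transgene Tg(her4.1:EGFP), in which the promoter of the Notch target her4.1 drives green fluorescent protein in radial glia, which serve as stem and progenitor cells in the adult fish brain. Brains received interleukin-4 (IL4) peptide or phosphate-buffered saline (PBS) and were dissected 24 hours post injection (hpi), then dissociated and sorted by GFP. Controls therefore shared the injection, the dissociation and the sort. The GFP-negative fraction is a mixture of all other brain cells. Whether a library came from 1 fish or from a pool is not given in the labels, and p-values then cover only the spread between these libraries, which may be technical.

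NF-kB proteins bind DNA as dimers. In resting cells the IkB proteins hold the dimers in the cytoplasm, until the IKK kinase complex marks the IkB for destruction and the dimers enter the nucleus. The subunit rela and the product of nfkb1 make the classic dimer, while relb and the product of nfkb2 make that of the alternative pathway, which the kinase encoded by map3k14a switches on. Many inhibitor genes are themselves NF-kB targets in mammals, which makes them feedback brakes. In the brain the pathway is best known from microglia, endothelium and reactive glia.

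Total counts ran from 19242851 to 26582271 per library. The sort was checked on 15 radial glial genes, of which 14 were higher in GFP-positive than in GFP-negative cells after PBS. Their summed level was 38747 to 38869 CPM (read counts brought to one library size with TMM factors) after IL4 and 50915 to 51979 CPM after PBS in GFP-positive libraries. In GFP-negative libraries it was 2773 to 2787 CPM after IL4 and 2732 to 2753 CPM after PBS. Of the radial glial genes of the list, only SLC1A2 (ENSDARG00000052138) lacked counts in a whole group, with 0 counts in both IL4 GFP-positive libraries. It had counts in the other groups. Genes of other cells remained detectable in the GFP-positive fraction: 23 microglia and macrophage genes summed to 335 to 339 CPM after IL4 and to 865 to 872 CPM after PBS. In these bulk libraries fewer cells of a type and less RNA per cell cannot be told apart.

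The subunit genes lie on GRCz10 as follows. nfkb1 (ENSDARG00000105261) spans chr14:50609994-50657925 on the minus strand, and nfkb2 (ENSDARG00000038687) spans chr13:22586916-22605097 on the plus strand. rela (ENSDARG00000098696) spans chr7:631481-667718 on the minus strand, relb (ENSDARG00000086173) spans chr15:17164390-17189195 on the plus strand, and rel (ENSDARG00000055276) spans chr13:25665061-25689375 on the minus strand. Counts cover all exons of a gene, of which nfkb1 has 16, nfkb2 25, rela 13, relb 12 and rel 10.

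The 2 genes for IkB alpha are paralogues on different chromosomes. nfkbiaa (ENSDARG00000005481, 6 exons) spans chr20:16982300-16985154 on the plus strand, and nfkbiab (ENSDARG00000007693, 5 exons) spans chr17:12788568-12792670 on the plus strand. nfkbie (ENSDARG00000068367, 6 exons) encodes IkB epsilon and spans chr20:51461165-51494683 on the minus strand. nfkbiz (ENSDARG00000102097, 12 exons), whose nuclear product IkB zeta modulates NF-kB at chosen promoters in mammals, spans chr1:18716-23865 on the plus strand. tnfaip3 (ENSDARG00000027777, 9 exons) encodes A20, a ubiquitin-editing enzyme that damps signalling upstream of IKK, and spans chr13:1051036-1078837 on the plus strand. How reads shared by paralogues were counted is not given in the sources used here, so the split between nfkbiaa and nfkbiab depends on an unknown choice wherever their sequences are alike.

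The level of RNA per gene length, in CPM per kilobase (kb), differed widely among the genes. nfkbiab had the highest level in every group: 283 ± 15.1 CPM per kb in IL4 GFP-positive cells, 558 ± 20.5 in PBS GFP-positive cells, 212 ± 1.21 in IL4 GFP-negative cells and 275 ± 9.05 in PBS GFP-negative cells (SD, n = 2 each). In IL4 GFP-positive cells the order below it was nfkbiaa (18.3 CPM per kb), relb (11.6), nfkbie (7.67), nfkb2 (7.30), rel (7.10), tnfaip3 (3.83), rela (1.47), nfkbiz (0.784) and nfkb1 (0.662). Within that group rel overlapped both nfkb2 and nfkbie, and nfkbiz overlapped nfkb1. In PBS GFP-positive cells the order was nfkbiaa (26.3 CPM per kb), nfkbie (10.3), relb (9.65), nfkb2 (8.58), rel (5.12), tnfaip3 (3.19), nfkbiz (1.47), rela (1.34) and nfkb1 (0.249), with overlap between nfkbie and relb and between nfkbiz and rela.

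GFP-negative cells had another order, with nfkbie and rel near the top. After IL4 it was nfkbie (40.6 CPM per kb), rel (25.0), nfkbiaa (22.4), relb (10.4), tnfaip3 (7.51), nfkb2 (5.15), nfkbiz (2.19), rela (1.06) and nfkb1 (0.918), and the last pair overlapped. After PBS it was nfkbie (73.4 CPM per kb), nfkbiaa (40.6), rel (39.7), relb (16.2), tnfaip3 (12), nfkb2 (6.02), nfkbiz (2.58), rela (1.70) and nfkb1 (1.62). There the neighbours nfkbiaa and rel overlapped, and so did nfkbiz, rela and nfkb1. In all groups rela and nfkb1, which make the classic dimer, were the 2 subunit genes with the least RNA, per length and in CPM. Values per length, here and in the shares and ratios below, depend on the annotated exon length, which was 1993 bases for nfkb1. With cDNA primed by poly-dT, reads need not scale with that length, so comparisons between genes are approximate. nfkb1 rested on 5 to 105 reads per library, rela on 59 to 140 and nfkbiz on 25 to 182, so these 3 genes carry the widest errors.

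**Figure D1:**
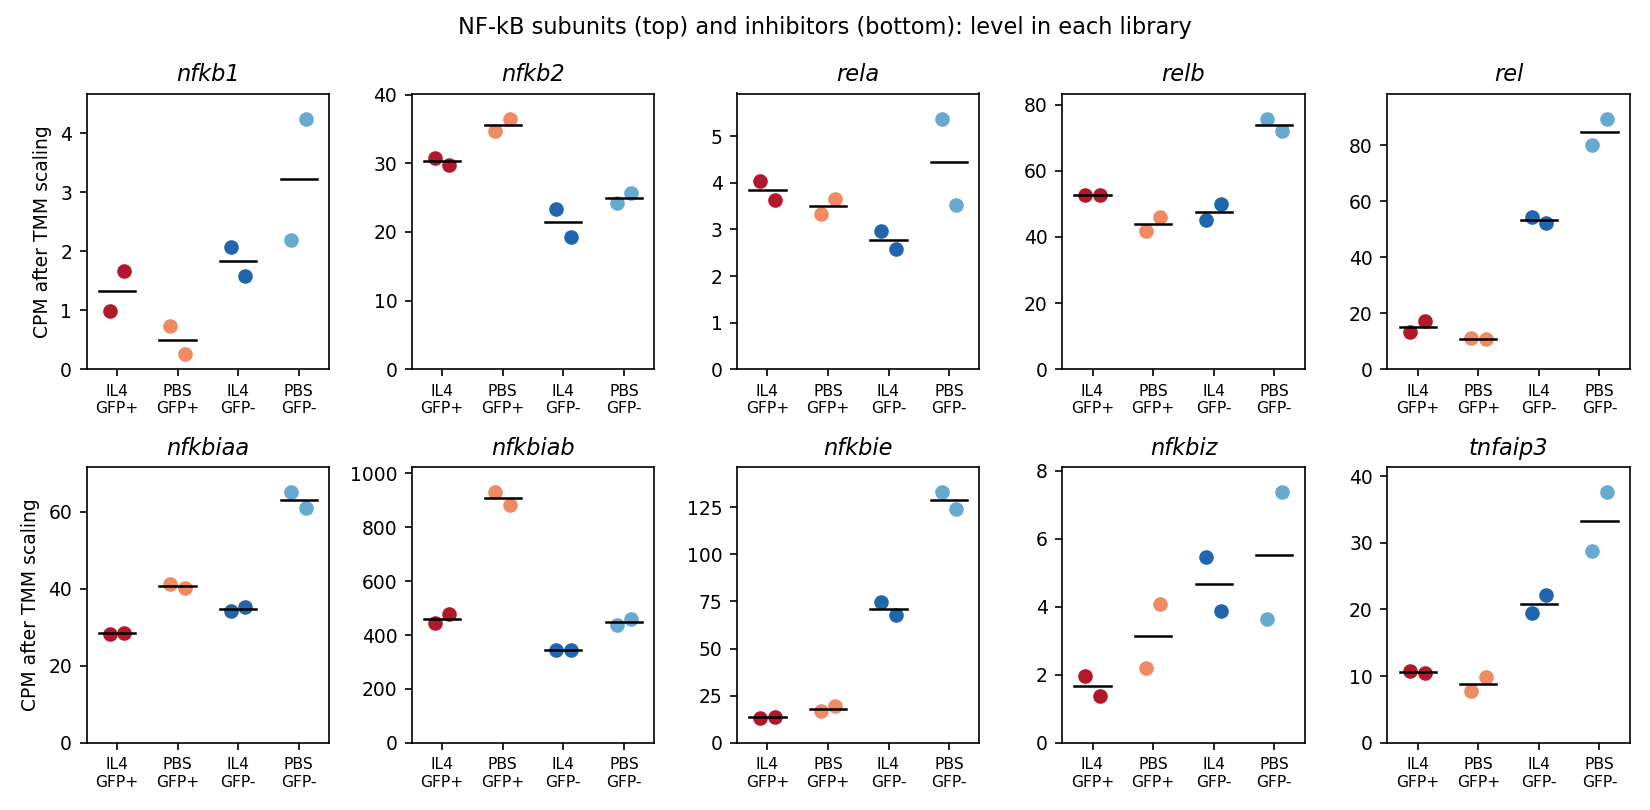
Level of each of the 10 genes (vertical axes, CPM after TMM) in the 8 libraries (points; lines, group means), for IL4 and PBS GFP-positive and IL4 and PBS GFP-negative cells. nfkbiab stood at 443 and 478 CPM in IL4 GFP-positive cells and at 931 and 884 CPM in PBS GFP-positive cells, while rel, nfkbie and tnfaip3 were higher in every GFP-negative than in any GFP-positive library.

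The make-up of the subunit RNA separated the fractions. Of the summed level per length of the 5 subunits, rel, the gene of c-Rel, made up 22.7% and 27.6% in IL4 GFP-positive and 21.5% and 19.6% in PBS GFP-positive libraries. In GFP-negative libraries its share was 58.9% and 58.4% after IL4 and 59.4% and 62.1% after PBS. The pair of the alternative pathway took the larger share in GFP-positive cells. relb made up 42.5% and 40.0% in IL4 GFP-positive, 37.6% and 39.8% in PBS GFP-positive, 22.9% and 26.2% in IL4 GFP-negative and 26.4% and 23.5% in PBS GFP-negative libraries. nfkb2 made up 27.3% and 24.7% in IL4 GFP-positive, 34.2% and 34.6% in PBS GFP-positive, 13.1% and 11.1% in IL4 GFP-negative and 9.23% and 9.21% in PBS GFP-negative libraries. rela stayed at 2.00% to 5.67% and nfkb1 at 0.516% to 3.17%. These shares describe RNA, not protein.

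**Figure D2:**
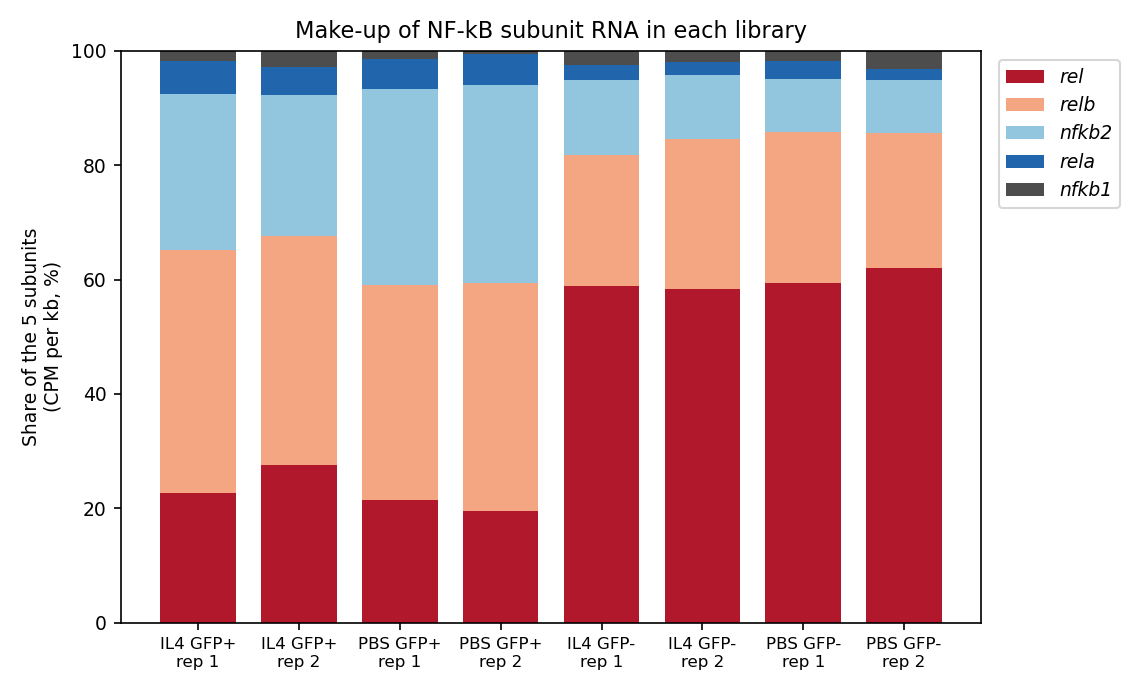
Share of each NF-kB subunit gene (vertical axis, percent of the summed CPM per kb of the 5 subunits) in each of the 8 libraries (bars). The share of rel was 19.6% to 27.6% in GFP-positive and 58.4% to 62.1% in GFP-negative libraries, and relb with nfkb2 filled most of the rest.

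The sort itself was read after PBS as GFP-positive over GFP-negative, 24 hours after a control injection. It compares relative RNA levels between GFP-positive cells and the mixture of other brain cells. rel, nfkbie, nfkb1 and tnfaip3 were much lower in GFP-positive cells, relb and nfkbiaa moderately so, and nfkbiab and nfkb2 were higher. By edgeR's quasi-likelihood test with Benjamini-Hochberg adjustment, 7 of the 10 genes were lower and 2 were higher, where 39.1% of all genes tested were lower and 32.6% were higher. With 71.7% of all genes called, a count of 9 called is not far above the background. The median log2 difference was -0.79 over the 10 genes and -0.14 over all genes.

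Among the subunits, rel had 11.2 and 10.7 CPM in PBS GFP-positive libraries, against 80.2 and 89.5 CPM in PBS GFP-negative libraries. The log2 difference was -2.95 ± 0.12 (SE, n = 2 against 2, adjusted p = 1.17e-14). nfkb1 had 0.731 and 0.261 CPM in PBS GFP-positive against 2.19 and 4.25 CPM in PBS GFP-negative libraries (-2.65 ± 0.50, adjusted p = 1e-04), at -3.51 and -2.04 without replicate 1 and 2 of PBS GFP-positive cells. Both genes were lower in each GFP-positive library than in either GFP-negative one. relb had 41.8 and 46.0 CPM in PBS GFP-positive against 75.8 and 72.1 CPM in PBS GFP-negative libraries (-0.75 ± 0.09, adjusted p = 1.4e-07). nfkb2 ran the other way, with 34.7 and 36.5 CPM in PBS GFP-positive against 24.2 and 25.7 CPM in PBS GFP-negative libraries (0.51 ± 0.12, adjusted p = 0.000603). Neither relb nor nfkb2 overlapped between the fractions. rela had 3.34 and 3.66 CPM in PBS GFP-positive and 5.38 and 3.52 CPM in PBS GFP-negative libraries, which overlapped, and it was not called (adjusted p = 0.272).

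Among the inhibitors, nfkbie differed most. It had 16.6 and 19.6 CPM in PBS GFP-positive against 133 and 124 CPM in PBS GFP-negative libraries (-2.83 ± 0.10, adjusted p = 6.53e-16). tnfaip3 had 7.77 and 9.93 CPM in PBS GFP-positive against 28.8 and 37.6 CPM in PBS GFP-negative libraries (-1.91 ± 0.16, adjusted p = 1.96e-09). These 2 genes were thus lower in both GFP-positive libraries by a wide margin. The IkB alpha paralogues split. nfkbiab was higher in GFP-positive cells, with 931 and 884 CPM against 437 and 458 CPM in GFP-negative libraries (1.02 ± 0.05, adjusted p = 8.79e-14). nfkbiaa was lower, with 41.3 and 40.3 CPM in PBS GFP-positive against 65.1 and 60.9 CPM in PBS GFP-negative libraries (-0.63 ± 0.09, adjusted p = 3.06e-06). nfkbiz had 2.19 and 4.08 CPM in PBS GFP-positive and 3.65 and 7.37 CPM in PBS GFP-negative libraries. These ranges overlapped, and its call (-0.82 ± 0.35, adjusted p = 0.0437) was held in only 4 of 13 alternative settings, with -0.23 without replicate 2 of PBS GFP-negative and -0.35 without replicate 1 of PBS GFP-positive cells.

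After IL4 the same sort gave 5 genes lower and 2 higher, where 34.3% of all genes were lower and 32.4% higher (66.6% called). The median was -0.38 over the 10 genes and -0.05 over all genes. The differences were -1.81 ± 0.12 for rel (adjusted p = 2.47e-11), -2.40 ± 0.10 for nfkbie (adjusted p = 2.35e-14), -0.97 ± 0.16 for tnfaip3 (adjusted p = 2.98e-05), -1.48 ± 0.39 for nfkbiz (adjusted p = 0.00238) and -0.29 ± 0.09 for nfkbiaa (adjusted p = 0.0108). The nfkbiaa call was lost without replicate 2 of IL4 GFP-negative or replicate 1 of IL4 GFP-positive cells, at -0.27 in both. nfkb2 was higher by 0.50 ± 0.12 (adjusted p = 0.00105) and nfkbiab by 0.42 ± 0.05 (adjusted p = 1.32e-07). For nfkb1 (-0.47 ± 0.47), rela (0.47 ± 0.29) and relb (0.15 ± 0.09) no difference was called.

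These sort differences depend on scaling. With library totals in place of TMM the median of all genes shifts by -0.484 after PBS and by -0.436 after IL4, and the share of calls that are higher is 28.2% in place of 45.5% after PBS and 30.6% in place of 48.6% after IL4. Under library totals the nfkb2 calls were lost (0.03 after PBS, 0.06 after IL4), nfkbiab was at 0.53 after PBS and at -0.02 after IL4, and relb was at -1.24 after PBS and, lower by call, at -0.29 after IL4. rela was called lower after PBS (-0.84), and nfkbiaa was at -1.11 after PBS and -0.73 after IL4. Markers of other cells moved with the sort: after PBS, 21 of 22 tested microglia and macrophage genes and 12 of 13 endothelial genes were lower in GFP-positive cells. Microglia and macrophage genes summed to 865 to 872 CPM in PBS GFP-positive against 8926 to 9273 CPM in PBS GFP-negative libraries. Among them, MPEG1 (ENSDARG00000055290) had 209 and 213 reads in PBS GFP-positive against 3763 and 3224 reads in PBS GFP-negative libraries. Another gene of that symbol (ENSDARG00000043093) had few reads, 10 and 1 against 7 and 8. A further one (ENSDARG00000078569) had 0 reads in both PBS GFP-positive libraries. It had only 1 read in each PBS GFP-negative library, so its lack of reads says nothing about the sort. The part of these other cells in the differences of the NF-kB genes was not tested.

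The next comparison asked how these genes differed after IL4 in the GFP-positive fraction, which also held RNA of other cells. In GFP-positive cells nfkbiab fell to 0.507 times its PBS level, and nfkbiaa and nfkbie fell by less, while rel and relb were called slightly higher. Of the 10 genes, 3 were lower and 2 higher, where 14.8% of all genes were lower and 13.9% higher (28.7% called, 5889 of 20508). The median was -0.05 over the 10 genes and 0.01 over all genes. Library totals would make 59.1% of all calls in this comparison higher, in place of 48.3%, whereas DESeq2's size factors in edgeR would make 40.8% and DESeq2 40.3% higher.

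nfkbiab, an IkB alpha gene, had 443 and 478 CPM in IL4 GFP-positive against 931 and 884 CPM in PBS GFP-positive libraries. The groups were far apart, and the log2 change was -0.98 ± 0.05 (SE, n = 2 against 2, adjusted p = 6.51e-12), which placed it 33rd by p among all genes. nfkbiaa, its paralogue, had 28.2 and 28.6 CPM in IL4 GFP-positive against 41.3 and 40.3 CPM in PBS GFP-positive libraries (-0.52 ± 0.09, adjusted p = 0.000285). nfkbie had 13.3 and 13.6 CPM in IL4 GFP-positive against 16.6 and 19.6 CPM in PBS GFP-positive libraries (-0.42 ± 0.11, adjusted p = 0.00651). All 3 were lower in each IL4 library than in either PBS library, and the 3 calls held in all 13 alternatives, with -1.09 to -0.91 for nfkbiab, -0.60 to -0.45 for nfkbiaa and -0.60 to -0.35 for nfkbie.

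rel had 13.2 and 17.1 CPM in IL4 GFP-positive against 11.2 and 10.7 CPM in PBS GFP-positive libraries (0.47 ± 0.13, adjusted p = 0.0106). relb had 52.6 and 52.7 CPM in IL4 GFP-positive against 41.8 and 46.0 CPM in PBS GFP-positive libraries (0.26 ± 0.09, adjusted p = 0.0290). Neither overlapped, but both calls were weak. The rel call was lost without replicate 2 of IL4 (0.21) or replicate 1 (0.45) or 2 (0.38) of PBS GFP-positive cells. The relb call was lost without any 1 of the 4 GFP-positive libraries, at 0.21 and 0.20 without replicate 1 and 2 of IL4 and at 0.14 and 0.27 without replicate 1 and 2 of PBS, and also with DESeq2's size factors in edgeR (0.21) and with DESeq2 (0.21).

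The remaining genes were not called in GFP-positive cells. nfkb1 had 0.983 and 1.66 CPM after IL4 against 0.731 and 0.261 CPM after PBS (1.37 ± 0.55, adjusted p = 0.0708), from 18 and 30 against 16 and 5 reads. nfkb2, whose product is the precursor of p52, had 30.8 and 29.7 CPM after IL4 against 34.7 and 36.5 CPM after PBS (-0.23 ± 0.12, adjusted p = 0.148). rela had 4.04 and 3.64 CPM after IL4 and 3.34 and 3.66 CPM after PBS (0.14 ± 0.29, adjusted p = 0.773). The nfkb1 and nfkb2 groups did not overlap, whereas those of rela did. nfkbiz had 1.97 and 1.38 CPM after IL4 against 2.19 and 4.08 CPM after PBS (-0.89 ± 0.40, adjusted p = 0.108), and tnfaip3 had 10.7 and 10.5 CPM after IL4 against 7.77 and 9.93 CPM after PBS (0.27 ± 0.18, adjusted p = 0.280). Without replicate 1 of PBS GFP-positive cells nfkb1 (2.25) and nfkbiz (-1.34) passed the threshold, and nfkb1 also passed it without the filter on low counts (1.37, adjusted p = 0.0439, over the alternatives 0.0331 to 0.385).

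In the same GFP-positive libraries 15 of 22 tested microglia and macrophage genes were lower after IL4, with summed levels of 335 to 339 CPM after IL4 and 865 to 872 CPM after PBS. Of 15 radial glial genes, 13 were lower, with a median log2 change of -0.55. Of 13 neuronal genes 9 were higher (median 0.64), with sums of 1148 to 1161 CPM after IL4 and 719.8 to 750.1 CPM after PBS. Of 8 oligodendrocyte genes 6 were lower, with sums of 1598 to 1614 CPM after IL4 and 1925 to 2005 CPM after PBS. Endothelial genes summed to 26.7 to 30.8 CPM after IL4 and 31.1 to 34.3 CPM after PBS. Lymphocyte genes summed to 10.3 to 11.7 CPM after IL4 and 7.63 to 8.69 CPM after PBS, with cd79b at 0 counts after IL4 and RAG1 at 0 counts after PBS. Neutrophil genes summed to 5.91 to 7.59 CPM after IL4 and 10.3 to 12.6 CPM after PBS. For nfkbiab the mean was 908 ± 33.4 CPM in PBS GFP-positive and 448 ± 14.7 CPM in PBS GFP-negative cells (SD, n = 2 each). The part of these other cells in the changes of the NF-kB genes was not tested.

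**Figure D3:**
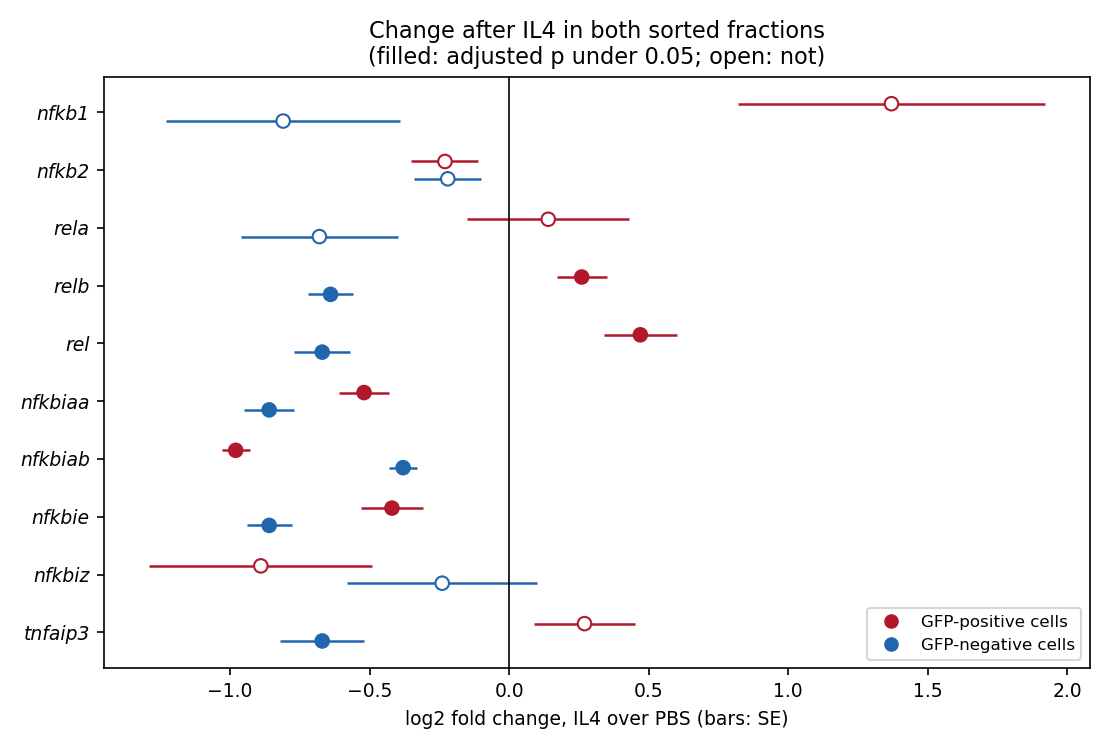
Log2 fold change of the 10 genes after IL4 over PBS (horizontal axis; bars, SE) in GFP-positive cells (red) and GFP-negative cells (blue), with filled points at an adjusted p under 0.05. rel and relb lie right of 0 in GFP-positive cells and left of it in GFP-negative cells, while nfkbiaa, nfkbiab and nfkbie lie left of 0 in both.

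In GFP-negative cells IL4 was followed by lower RNA of most of the inhibitors and of the subunits rel and relb. Of the 10 genes, 6 were lower (relb, rel, nfkbiaa, nfkbiab, nfkbie and tnfaip3), where 15.4% of all genes were lower (24.5% called in either direction, 5016 of 20508). Of all genes tested 9.04% were higher, and of the 10 genes 0 were higher by edgeR, also at an unadjusted p under 0.05 and with DESeq2. The median was -0.67 over the 10 genes and -0.02 over all genes.

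relb had 45.1 and 49.9 CPM in IL4 GFP-negative against 75.8 and 72.1 CPM in PBS GFP-negative libraries (-0.64 ± 0.08, adjusted p = 7.94e-06). rel had 54.4 and 52.3 CPM in IL4 GFP-negative against 80.2 and 89.5 CPM in PBS GFP-negative libraries (-0.67 ± 0.10, adjusted p = 4.42e-05). Both IL4 libraries were below both PBS libraries for these 2 genes. The other subunits were not called: nfkb1 had 2.08 and 1.58 CPM in IL4 against 2.19 and 4.25 CPM in PBS libraries (-0.81 ± 0.42, adjusted p = 0.189). nfkb2 had 23.4 and 19.3 CPM in IL4 against 24.2 and 25.7 CPM in PBS libraries (-0.22 ± 0.12, adjusted p = 0.198), and rela had 2.97 and 2.59 CPM in IL4 against 5.38 and 3.52 CPM in PBS libraries (-0.68 ± 0.28, adjusted p = 0.0925). None of these 3 was called in any of the 13 alternatives, although their IL4 and PBS libraries did not overlap. With 2 libraries a group such a gap, here and above, can easily arise by chance. Its share over all genes was not counted, so a gap alone is no sign of a change.

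The inhibitors nfkbiaa and nfkbie fell most in GFP-negative cells. nfkbiaa had 34.3 and 35.2 CPM in IL4 against 65.1 and 60.9 CPM in PBS libraries (-0.86 ± 0.09, adjusted p = 3.47e-07). nfkbie had 74.7 and 67.6 CPM in IL4 against 133 and 124 CPM in PBS libraries (-0.86 ± 0.08, adjusted p = 1.56e-07). For both genes the libraries of IL4 and PBS were clearly apart. nfkbiab had 346 and 344 CPM in IL4 against 437 and 458 CPM in PBS libraries (-0.38 ± 0.05, adjusted p = 3.43e-06). tnfaip3 had 19.5 and 22.1 CPM in IL4 against 28.8 and 37.6 CPM in PBS libraries (-0.67 ± 0.15, adjusted p = 0.00198), a call lost without replicate 2 of PBS GFP-negative cells, at -0.47. The calls for relb, rel, nfkbiaa, nfkbiab and nfkbie held in all 13 alternatives. nfkbiz had 5.47 and 3.87 CPM in IL4 and 3.65 and 7.37 CPM in PBS libraries, which overlapped (-0.24 ± 0.34, adjusted p = 0.684), and it was at 0.35 without replicate 2 of PBS GFP-negative cells.

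Markers of other cells moved in these libraries too. Of 22 tested microglia and macrophage genes 19 were lower after IL4 (median -1.36), and their summed level was 2927 to 2978 CPM in IL4 GFP-negative against 8926 to 9273 CPM in PBS GFP-negative libraries. Of 13 endothelial genes 12 were lower (median -1.32), with sums of 76.1 to 76.4 CPM after IL4 and 223 to 233 CPM after PBS. Neutrophil genes summed to 139 to 140 CPM after IL4 and 249 to 257 CPM after PBS, with 3 of the 4 tested lower and lyz higher (0.83 ± 0.16). Lymphocyte genes summed to 157 to 162 CPM after IL4 and 159 to 164 CPM after PBS. Most of that sum was tnfrsf9b, with 101 and 103 CPM after IL4 against 121 and 116 CPM after PBS. Of the 10 lymphocyte genes tested 2 were higher and 1 lower (median 0.51). Neuronal genes, 8 of 13 of which were higher, summed to 6124 to 6217 CPM after IL4 and 4519 to 4562 CPM after PBS. Oligodendrocyte genes summed to 19732 to 19928 CPM after IL4 and 15079 to 15289 CPM after PBS, with 4 of 8 higher and 1 lower. Their part in the lower NF-kB genes was not tested.

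Whether IL4 acted differently in the fractions was tested as an interaction, the log2 change in GFP-positive minus that in GFP-negative cells, which uses the same 8 libraries as the changes themselves. The difference was positive for 5 of the 10 genes and negative for 1, where 11.5% of all genes were positive and 7.26% negative (18.7% called, 3843 of 20508). The median was 0.62 over the 10 genes and 0.07 over all genes. DESeq2 called 3 positive and 1 negative. With DESeq2's size factors in edgeR 51.2% of all called differences were positive, and with DESeq2 50.6%, in place of 61.3%.

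rel changed by 0.47 in GFP-positive and by -0.67 in GFP-negative cells, a difference of 1.14 ± 0.17 (SE, adjusted p = 5.67e-05). relb changed by 0.26 in GFP-positive and by -0.64 in GFP-negative cells, a difference of 0.90 ± 0.12 (adjusted p = 2.24e-05). These differences kept their call in all 13 alternatives (0.86 to 1.24 for rel, 0.76 to 0.98 for relb), although the rises in GFP-positive cells alone did not. nfkbiab was the only member with a called difference in the other direction, with a change of -0.98 in GFP-positive cells against -0.38 in GFP-negative cells (-0.60 ± 0.07, adjusted p = 1.63e-06), and its call also held in all 13 alternatives.

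tnfaip3 changed by 0.27 in GFP-positive and -0.67 in GFP-negative cells (difference 0.94 ± 0.23, adjusted p = 0.00666), a call lost without replicate 2 of PBS GFP-negative (0.74) or replicate 1 of PBS GFP-positive cells (0.69). nfkb1 changed by 1.37 in GFP-positive and -0.81 in GFP-negative cells (difference 2.18 ± 0.70, adjusted p = 0.0342), and nfkbie by -0.42 in GFP-positive and -0.86 in GFP-negative cells (difference 0.43 ± 0.14, adjusted p = 0.0360). These 2 calls held in 6 of 13 alternatives each. The nfkb1 difference was at 3.04 without replicate 1 of PBS GFP-positive cells, and among the settings that ended its call were DESeq2 (2.14) and the fits without replicate 2 of IL4 GFP-positive (1.68), replicate 2 of PBS GFP-positive (1.57), replicate 1 or 2 of IL4 GFP-negative (2.40, 2.00) or replicate 2 of PBS GFP-negative cells (1.63). That of nfkbie lost it with DESeq2 and its size factors in edgeR (0.36 in both), and without replicate 1 or 2 of IL4 GFP-positive (0.37, 0.34), replicate 1 of PBS GFP-positive (0.24), replicate 2 of IL4 GFP-negative (0.36) or replicate 1 of PBS GFP-negative cells (0.38). For nfkb2 (-0.01 ± 0.17), rela (0.82 ± 0.41), nfkbiaa (0.34 ± 0.13) and nfkbiz (-0.66 ± 0.53) no difference was called. With library totals nfkb2 changed sign (0.04), and nfkbiaa passed the threshold in edgeR (0.39, adjusted p = 0.0454).

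Ratios within a library do not depend on its scaling. The nfkbiab to nfkbiaa ratio per length was 15 and 15.9 in IL4 GFP-positive against 21.5 and 21.0 in PBS GFP-positive libraries. In GFP-negative libraries it ran the other way, at 9.65 and 9.31 after IL4 against 6.41 and 7.18 after PBS. IL4 and PBS did not overlap in either fraction, with the IL4 libraries lower in GFP-positive and higher in GFP-negative cells.

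The sum of both IkB alpha genes over the sum of the 5 subunits, per length, was 10.7 and 10.8 in IL4 GFP-positive against 24.5 and 22.4 in PBS GFP-positive libraries. In GFP-negative libraries it was 5.44 and 5.58 after IL4 against 4.92 and 4.76 after PBS. The gap was thus wide in GFP-positive and narrow in GFP-negative cells. In GFP-positive cells the IkB alpha sum was 291 and 312 CPM per kb after IL4 against 599 and 569 after PBS, with a subunit sum of 27.2 and 29.0 after IL4 against 24.4 and 25.4 after PBS. In GFP-negative cells both sums were lower after IL4, the IkB alpha sum at 235 and 234 against 311 and 321 CPM per kb after PBS, and the subunit sum at 43.2 and 41.9 against 63.1 and 67.4. The ratio of rel to relb overlapped between IL4 and PBS in both fractions, with 0.535 and 0.691 in IL4 GFP-positive, 0.571 and 0.494 in PBS GFP-positive, 2.57 and 2.23 in IL4 GFP-negative and 2.25 and 2.64 in PBS GFP-negative libraries. With 2 libraries a group no exact permutation test on a ratio can pass the threshold, so these are descriptions.

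**Figure D4:**
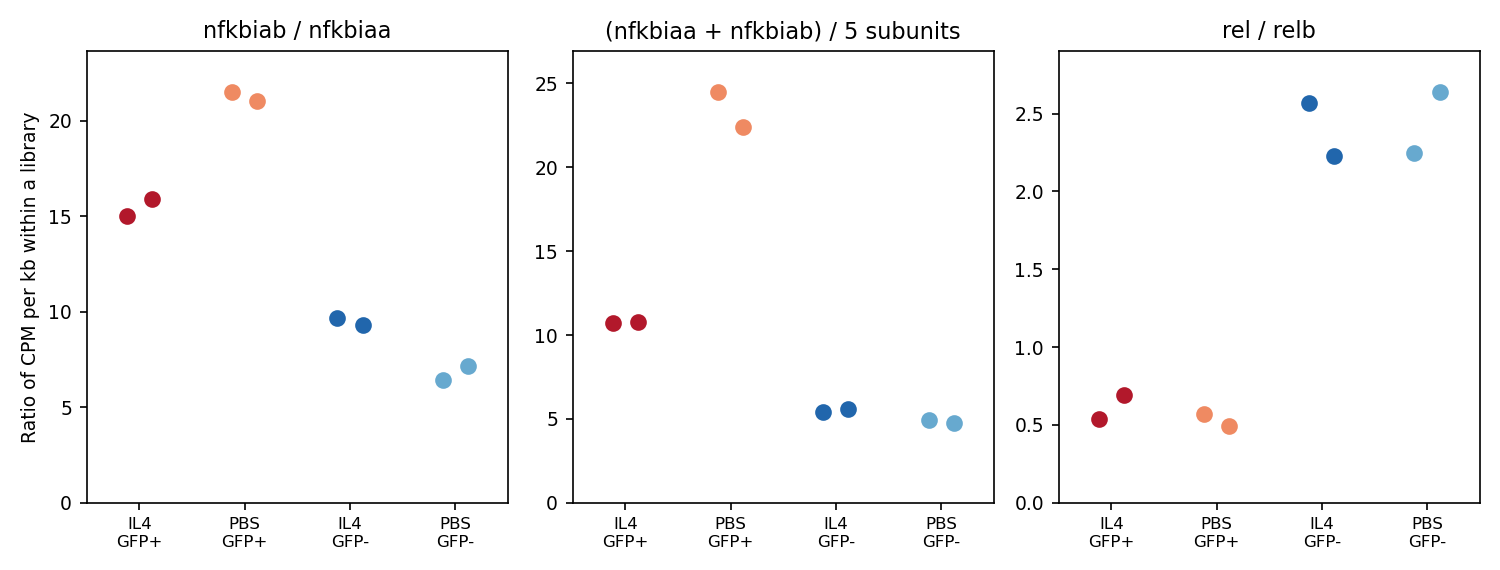
Ratios of CPM per kb within each of the 8 libraries (points) for nfkbiab over nfkbiaa, both IkB alpha genes over the 5 subunits, and rel over relb, for IL4 and PBS GFP-positive and IL4 and PBS GFP-negative cells. The ratio of IkB alpha to subunits stood at 10.7 and 10.8 after IL4 against 24.5 and 22.4 after PBS in GFP-positive cells.

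Of 14 tested genes for other brakes and IkB relatives, 3 rose and 1 fell after IL4 in GFP-positive cells (median -0.05), a share called near that of all genes (13.9% higher, 14.8% lower). bcl3, an atypical IkB that binds p50 and p52 homodimers in the nucleus in mammals, had 2.46 and 2.60 CPM after IL4 against 0.960 and 0.941 CPM after PBS (1.40 ± 0.33, adjusted p = 0.00316). TNIP1, which encodes a partner of A20, rose by 0.63 ± 0.09, and TOLLIP, an adaptor that dampens Toll-like receptor signalling, was lower by call (-0.53 ± 0.10). In GFP-negative cells 1 of the 14 rose and 4 fell (median -0.12), where 9.04% of all genes were higher and 15.4% lower. Among those that fell were N4BP1 (-0.71 ± 0.11), the RNase gene ZC3H12A on chromosome 19 (-0.80 ± 0.17) and tnip2 (-0.64 ± 0.17). The ZC3H12A call was lost without replicate 2 of IL4 GFP-negative cells (-0.65), and that of tnip2 without replicate 2 of IL4 (-0.52) or of PBS (-0.47) GFP-negative cells. The difference between fractions was positive for 4 and negative for 0 of the 14 by edgeR, with 5 and 2 at an unadjusted p under 0.05 and 2 and 1 by DESeq2. Over all genes 11.5% had a positive and 7.26% a negative difference by edgeR.

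A kinase list held 11 genes for kinases of the pathway and for their regulatory or partner subunits, among them ikbkg and TAB1. Of these 11 genes, 4 fell and 0 rose in GFP-positive cells by edgeR (median 0.02), where 14.8% of all genes fell and 13.9% rose. The counts were 5 and 0 both at an unadjusted p under 0.05 and by DESeq2. TBK1 (-0.39 ± 0.08), TAB1 (-0.60 ± 0.19) and ikbkg (-0.31 ± 0.08) fell by call, the last of which encodes the regulatory subunit of IKK. The TAB1 call was lost without replicate 2 of IL4 (-0.54) or replicate 1 of PBS GFP-positive cells (-0.59). The catalytic IKK genes were not called. CHUK had 33.1 and 31.7 CPM after IL4 and 32.2 and 29.8 CPM after PBS, which overlapped (0.06 ± 0.10), and IKBKB had 4.42 and 6.07 CPM after IL4 against 3.93 and 3.87 CPM after PBS (0.43 ± 0.27). map3k14a, the kinase of the alternative pathway, had 92.9 and 99.6 CPM after IL4 against 113 and 117 CPM after PBS (-0.26 ± 0.07, adjusted p = 0.00911), a call lost with library totals (-0.19).

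In GFP-negative cells 1 gene of the kinase list rose and 3 fell (median 0.04), where 9.04% of all genes rose and 15.4% fell. The 4 calls were 0 to 3 over the alternatives. IKBKE had 1.99 and 1.63 CPM after IL4 against 4.73 and 4.82 CPM after PBS (-1.40 ± 0.32, adjusted p = 0.00241), a call lost without replicate 2 of IL4 GFP-negative cells (-1.26). MAP3K7, the gene of TAK1, was higher (0.31 ± 0.10) and ikbkg lower (-0.22 ± 0.07), but these calls held in 9 and 3 of 13 alternatives and both were lost without any 1 of the 4 GFP-negative libraries (0.26 to 0.35 for MAP3K7, -0.23 to -0.21 for ikbkg). CHUK (0.21 ± 0.10), IKBKB (-0.33 ± 0.26) and map3k14a (0.04 ± 0.08) were not called. The difference between fractions was positive for 1 and negative for 2 of the 11 genes of the kinase list by edgeR, and for 0 and 2 by DESeq2. Over all genes 11.5% were positive and 7.26% negative by edgeR.

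Of 22 receptor and adaptor genes, 4 rose and 3 fell in GFP-positive cells (median 0.17), a share called near the 28.7% of all genes. TLR2, a Toll-like receptor gene, had 2.24 and 1.6 CPM after IL4 against 0.640 and 0.680 CPM after PBS (1.54 ± 0.39, adjusted p = 0.00562), and its call was lost without replicate 1 of IL4 GFP-positive cells (1.22). bcl10 (1.78 ± 0.54) and TIRAP (-2.11 ± 0.69) rested on few reads, 59 and 26 after IL4 against 27 and 1 after PBS for bcl10, and 3 and 2 after IL4 against 11 and 14 after PBS for TIRAP. Their calls were lost without single GFP-positive libraries: for bcl10 replicate 1 of IL4 (1.02) or replicate 2 of PBS (0.85), and for TIRAP replicate 1 (-2.47) or 2 (-1.93) of IL4 or replicate 2 of PBS (-1.89). bcl10 was at 5.28 without replicate 1 of PBS, where the only PBS library left had 1 read, so that value is no measure of size. It also lost its call with DESeq2 and without the filter.

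In GFP-negative cells 1 receptor or adaptor gene rose and 9 fell (median -0.65), where 9.04% of all genes rose and 15.4% fell. MYD88, the central adaptor of Toll-like receptors, had 13.0 and 12.2 CPM after IL4 against 31.0 and 33.1 CPM after PBS (-1.35 ± 0.11, adjusted p = 1.23e-08). IRAK3, which encodes an inhibitory pseudokinase of that pathway, had 38.4 and 37.2 CPM after IL4 against 133 and 118 CPM after PBS (-1.73 ± 0.09, adjusted p = 1.34e-11). Both were far apart between the groups. tlr3 was lower too (-1.37 ± 0.40), a call lost without replicate 1 (-1.52) or 2 (-1.24) of IL4 or replicate 1 of PBS (-1.04) GFP-negative cells. In GFP-positive cells IRAK3 was called lower as well (-1.31 ± 0.14, adjusted p = 5.95e-07). MYD88 (-0.19 ± 0.10) and tlr3 (0.16 ± 0.52) were not called there. The difference between fractions was positive for 8 of the 22 genes and negative for 0 by edgeR, with 14 and 0 at an unadjusted p under 0.05 and 6 and 0 by DESeq2. Over all genes 11.5% were positive and 7.26% negative by edgeR.

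Of 24 tested genes known as NF-kB targets, mostly from mammals, 12 fell and 1 rose after IL4 in GFP-positive cells (median -0.28), where 14.8% of all genes fell and 13.9% rose. In GFP-negative cells 14 of the 24 fell and 2 rose (median -0.35), where 15.4% of all genes fell and 9.04% rose. il1b, a pro-inflammatory cytokine gene, had 0.328 and 0.276 CPM in IL4 GFP-positive against 2.10 and 1.36 CPM in PBS GFP-positive libraries (-2.51 ± 0.43, adjusted p = 0.00018). Those values rested on few reads, 6 and 5 after IL4 against 46 and 26 after PBS. In GFP-negative cells il1b had 8.48 and 6.24 CPM after IL4 against 24.1 and 25.4 CPM after PBS (-1.75 ± 0.20, adjusted p = 1.06e-06). cxcl8a, a neutrophil-attracting chemokine gene, had 9.94 and 8.23 CPM in IL4 GFP-positive against 30.9 and 26.4 CPM in PBS GFP-positive libraries (-1.65 ± 0.19, adjusted p = 1.2e-06).

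In GFP-negative libraries cxcl8a was less abundant, at 2.93 and 1.93 CPM after IL4 against 8.15 and 9.80 CPM after PBS (-1.88 ± 0.22, adjusted p = 1.58e-06). It thus fell in both fractions and had more CPM in each GFP-positive library than in the GFP-negative libraries of the same injection. Its relative cxcl8b.1 (-2.27 ± 0.13) and the cytokine gene il6 (-2.28 ± 0.25) fell in GFP-negative cells as well. In GFP-positive cells il6 fell by call (-2.10 ± 0.53), which was lost without replicate 1 of IL4 GFP-positive cells (-1.52) and was at -3.30 without replicate 2. There il6 rested on 2 and 7 reads after IL4 against 17 and 27 reads after PBS. The complement gene c3a.1 had 4 and 0 reads in IL4 GFP-positive against 14 and 13 reads in PBS GFP-positive libraries (-2.53 ± 0.90, adjusted p = 0.0419), and its call held in 4 of the 12 alternatives that could be computed. It was lost without any 1 of the libraries except replicate 1 of IL4 GFP-positive cells, at -1.63 without replicate 2 of that group. Without replicate 1 the only IL4 library left had 0 reads, and the fitted value of -6.94 is no measure of size. tnfa was not called in GFP-positive (1.02 ± 0.95) or GFP-negative cells (0.61 ± 0.50). In GFP-positive cells tnfa rested on 2 and 11 reads after IL4 and 0 and 7 reads after PBS, which overlapped. Its change was -0.69 without replicate 2 of IL4, -0.09 without replicate 1 of PBS and 6.01 without replicate 2 of PBS. In that last fit the only PBS library left had 0 reads, so 6.01 is no measure of size. The difference between fractions was positive for 4 and negative for 6 of the 24 target genes by edgeR, and for 3 and 4 by DESeq2. Over all genes 11.5% were positive and 7.26% negative by edgeR. The part of other cells in the changes of these target genes was not tested.

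**Figure D5:**
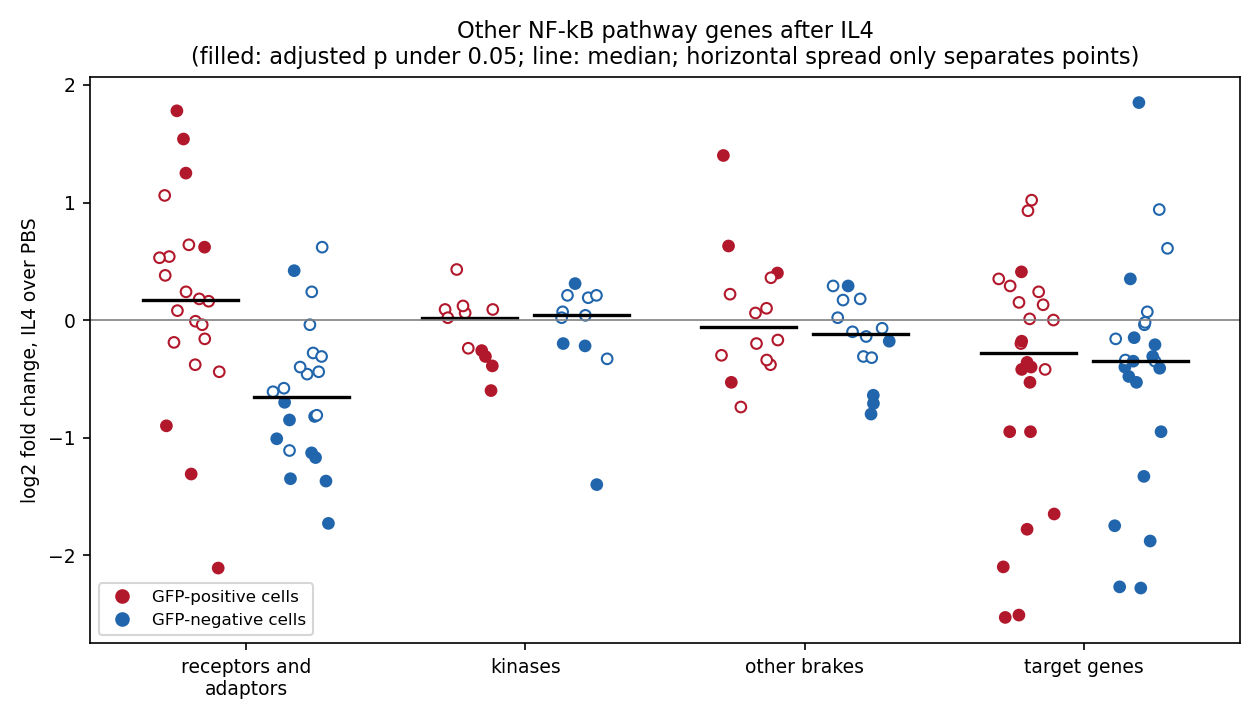
Log2 fold change after IL4 over PBS (vertical axis) of each tested gene (points, filled at an adjusted p under 0.05; lines, medians) in 4 lists of other pathway genes, in GFP-positive (red) and GFP-negative cells (blue). Of 24 target genes 12 were called lower in GFP-positive and 14 in GFP-negative cells, and of 22 receptor and adaptor genes 4 were called higher and 3 lower in GFP-positive cells, against 1 higher and 9 lower in GFP-negative cells.

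The genes whose pattern over the 8 libraries lay nearest to that of a member were found by the Euclidean distance between centred log2 CPM values, given here for the 6 genes with a called difference between fractions. They were found with no test, and 8 libraries in 4 groups leave few ways to differ. Nearest to rel were GRID2IP (0.36), STK10 (0.43) and glis1b (0.44), where the median gene lay at 3.52. Nearest to relb were dync1i2a (0.19), TMEM120A (0.19) and CAP1 (0.25), with a median of 1.86. Nearest to nfkbiab were mmadhca (0.24), ENSDARG00000098250 (0.24) and HSPA2 (ENSDARG00000092362, 0.25), with a median of 2.16.

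For nfkbie the nearest was tnip2 (0.41), one of the brake genes above, with si:dkey-238c7.13 (0.41) and si:ch73-281k2.5 (0.47) next and a median of 3.84. For tnfaip3 they were DESI2 (0.34), si:dkeyp-80d11.10 (0.36) and ADIPOR2 (0.36), with a median of 2.59. nfkb1, with its few reads, had no near match: qrfpr4 (0.84), kif9 (0.85) and nox1 (0.94) came closest, with a median of 3.20.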

How the data were processed

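RNA sequencing was measured in 8 libraries of sorted brain cells. The deposited values are read counts per gene without normalization, made by the authors with featureCounts on GRCz10 (danRer10), per the submitters' processing notes. Per the labels' protocols, cDNA was primed with poly-dT and sequenced as 75 bp single-end reads. Aligner, versions, strand and the handling of multiply aligned reads are not given in the sources used here. The design text of the series names CPP or AB42 injections, 48 hours and triplicates. The labels, which match the column names, were followed instead. Every count column was matched to a sample (0 were left over).

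Symbols came from a table of gene identifiers (25925 of 31388 genes). Members and lists were matched by symbol, then synonym, then without the paralogue letter. Members and lists were chosen with earlier results of these data known. Named pathway genes are the 3 called genes with the largest change per list and IL4 comparison, plus tnfa, il1b, cxcl8a, ikbkb, chuk, ikbkg and map3k14a.

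edgeR 4.0.16 (R 4.3.3) was used with TMM scaling, filterByExpr (minimum count 10), 1 mean per group in a robust quasi-likelihood model of the 8 libraries (4 residual degrees of freedom) and a two-sided F test. P-values were adjusted by Benjamini-Hochberg over 20508 genes in each of 5 comparisons, with a threshold of 0.05. SE is the log2 fold change over the square root of F. Comparisons share libraries: each PBS group serves an IL4 comparison and the sort after PBS. Replicates differed by more than sampling noise (chi-square per gene 2.68 to 4.75). Replicate deviations of any 2 groups correlated at -0.011 to 0.0066, and the main fit did not pair samples of the same number. Such deviations also carry sampling noise, so they cannot exclude a pairing, which the labels do not state. The 13 alternatives were DESeq2's size factors in edgeR, library totals, no filter, DESeq2 1.42.0, a replicate block, and leaving out each of 8 libraries. The distance between patterns used a prior count of 2.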

Additional observations from a re-analysis of the deposited data

Results flagged for a closer look

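For 6 of the 10 genes the change after IL4 differed between GFP-positive and GFP-negative cells by the interaction test in edgeR with Benjamini-Hochberg adjustment. By the same test 18.7% of all 20508 genes were called, 11.5% with a positive and 7.26% with a negative difference. The differences in log2 change, GFP-positive minus GFP-negative, were 2.18 for nfkb1, 0.90 for relb, 1.14 for rel, -0.60 for nfkbiab, 0.43 for nfkbie and 0.94 for tnfaip3. Those of relb, rel and nfkbiab kept their call in all 13 alternatives. Those of nfkb1 and nfkbie held in 6 and that of tnfaip3 in 11. In GFP-positive and GFP-negative cells, microglia and macrophage genes were lower after IL4 as well, and 11 of the 22 tested had a called positive difference and 1 a negative one. Their part was not tested.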

How the results depend on the processing

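Of 650 alternative values for the 10 genes, 600 kept their direction and their side of the threshold, 39 lost their call, 5 gained one and 6 reversed. With library totals the nfkb2 difference between fractions was 0.04, and after IL4 the sort difference was -0.29 for relb (called) and -0.02 for nfkbiab. Leaving out 1 library at a time gave 3 to 5 members called after IL4 in GFP-positive cells (5 with all libraries), 3184 to 5626 genes called in GFP-negative cells (5016) and 2515 to 3898 genes with a called difference (3843). The counts of 3 came without replicate 2 of IL4 or of PBS GFP-positive cells, 3234 and 3184 without replicate 1 and 2 of IL4 GFP-negative cells, and 2515 without replicate 1 of that group. The same leave-outs gave -0.14 to 0.14 for the nfkb2 difference between fractions and -0.66 to 0.35 for nfkbiz in GFP-negative cells. In GFP-positive cells they gave -0.05 to 0.06 for CHUK and -0.69 to 6.01 for tnfa, where 6.01 rests on a lone PBS library with 0 reads. For map3k14a in GFP-negative cells they gave -0.01 to 0.09. The cause was not tested. These fits take a group's lone library to be as variable as the rest. A replicate block left 5, 6, 5, 8 and 7 members called in the 5 comparisons, in place of 5, 6, 6, 9 and 7. It ended the calls of nfkb1 for the difference between fractions (2.12), of nfkbiz in the sort after PBS (-0.81), of c3a.1 in GFP-positive (-2.58) and of ikbkg in GFP-negative cells (-0.22), and no other call of a member or named gene. The counts of called genes in the pathway lists moved by over 1.5 times in 29 of 156 alternatives. In GFP-negative cells, for example, they were 2 to 5 for the brakes (5) and 0 to 3 for the kinase list (4). Low counts of nfkb1, rela and nfkbiz limit what 2 libraries a group can show.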
